A study of Mus musculus with 6 samples.

Results

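The mitochondrial ribosomal proteins were described here through 76 genes of the 18193 genes tested, namely every gene whose platform symbol starts with Mrpl or Mrps followed by a digit. Of these, 47 carry a large subunit symbol (Mrpl) and 29 a small subunit symbol (Mrps). They were measured on 6 Affymetrix arrays of Ba/F3 cells, a mouse haematopoietic line of BALB/c background that needs interleukin-3 and was grown here with medium conditioned by WEHI-3 cells. Cells of both groups carried PAX5-KIDINS220, a fusion of the B-lineage transcription factor PAX5 with the membrane scaffold KIDINS220, under a retroviral Tet-on system. The 3 Dox(+) samples were cultured with 500 ng/mL doxycycline, which switches the fusion on, and the 3 Dox(-) samples without it, and RNA was taken at 24 h. Nothing in the labels tells if the cells were 1 clone or a pool, or if the samples came from separate cultures. The p-values therefore measure only array-to-array spread, which may be technical.

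Mitochondrial ribosomes translate the few proteins encoded by mitochondrial DNA, all of them subunits of the oxidative phosphorylation complexes. The small subunit decodes the mRNA and the large subunit joins the amino acids. Every protein of both subunits is encoded in the nucleus, made in the cytosol and imported. Doxycycline, a tetracycline, can itself inhibit translation by mitochondrial ribosomes, and all samples with the fusion induced also received the drug. No group analysed here received doxycycline without carrying the construct, so the drug and the fusion cannot be told apart in any value below.

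The array codes in the sample titles start with EA20 on 4 arrays (2 Dox(+), 2 Dox(-)) and with EA15 on 2 arrays (1 of each). The labels do not say what these codes mark, and they are called array sets here. The sets differed widely, with 6107 of the 18193 genes past the threshold between them, so the response to doxycycline was taken within sets, with the set as a block. In the EA20 set the codes of the Dox(+) arrays precede those of the Dox(-) arrays, so code order and treatment cannot be told apart there. All arrays had been scaled to a trimmed mean signal of 500, which hides any change in the amount of mRNA per sample, and fewer cells and less RNA per cell cannot be told apart in such samples. The interleukin-3 receptor subunit genes Il3ra, Csf2rb and Csf2rb2 and the leukocyte gene Ptprc had signals of at least 296 on every array. Kit, from the same marker list, did not exceed 68.1. All 3 T-cell, all 3 fibroblast and all 3 epithelial markers were at or below 149 on every array. The B-cell genes Cd79a and Ms4a1 did not exceed 60.0, whereas Cd79b, also a B-cell gene, read 467 to 777 while of the 2 endothelial genes Pecam1 read 995 to 1338 and Cdh5 did not exceed 49.9. None of these passed the threshold between the groups.

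The mean signals of the 76 genes ran between 335 (Mrps31) and 6789 (Mrpl16), with a median of 1905 against 126 for all genes tested. Such levels depend on the probes and give no order between genes. Of the 76, 34 had 1 probe set, and for the other 42 the brightest was used.

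With doxycycline, 0 of the 76 genes were called higher and 0 lower (limma with the array-set block, Benjamini-Hochberg adjusted p under 0.05). Over all genes 0.148% were called higher and 0.0495% lower, so a count of 0 among 76 is near the background. Differences are given as log2(signal + 16), Dox(+) minus Dox(-), which understates the changes of dim genes. The largest difference was 0.42 (Mrpl16), and the other 75 genes lay between -0.24 and 0.18. The 95% intervals of all 76 genes lay within 1.5-fold in either direction, and those of 51 within 1.2-fold. These intervals rest on the block and on the mean-variance trend of the fit. Without the block the differences are the same, since both sets hold the groups in equal numbers. However, 21 of the 76 intervals then lay within 1.5-fold and 0 within 1.2-fold, and limma called 0 genes in all. With the block but no trend, 74 lay within 1.5-fold and 10 within 1.2-fold. At an unadjusted p under 0.05, 1 of the 76 was higher and 8 were lower (1.32% and 10.5%), against 5.82% and 5.26% of all genes. Without the block these counts were 1 and 0, against 1.46% and 1.12% of all genes, and with the block but no mean-variance trend they were also 1 and 0. With a robust prior, or with the dimmest 40% of genes left out, they were 1 and 4. At an adjusted p under 0.10 with the block, 1 of the 76 was higher and 0 were lower, against 0.33% and 0.192% of all genes.

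**Figure D1:**
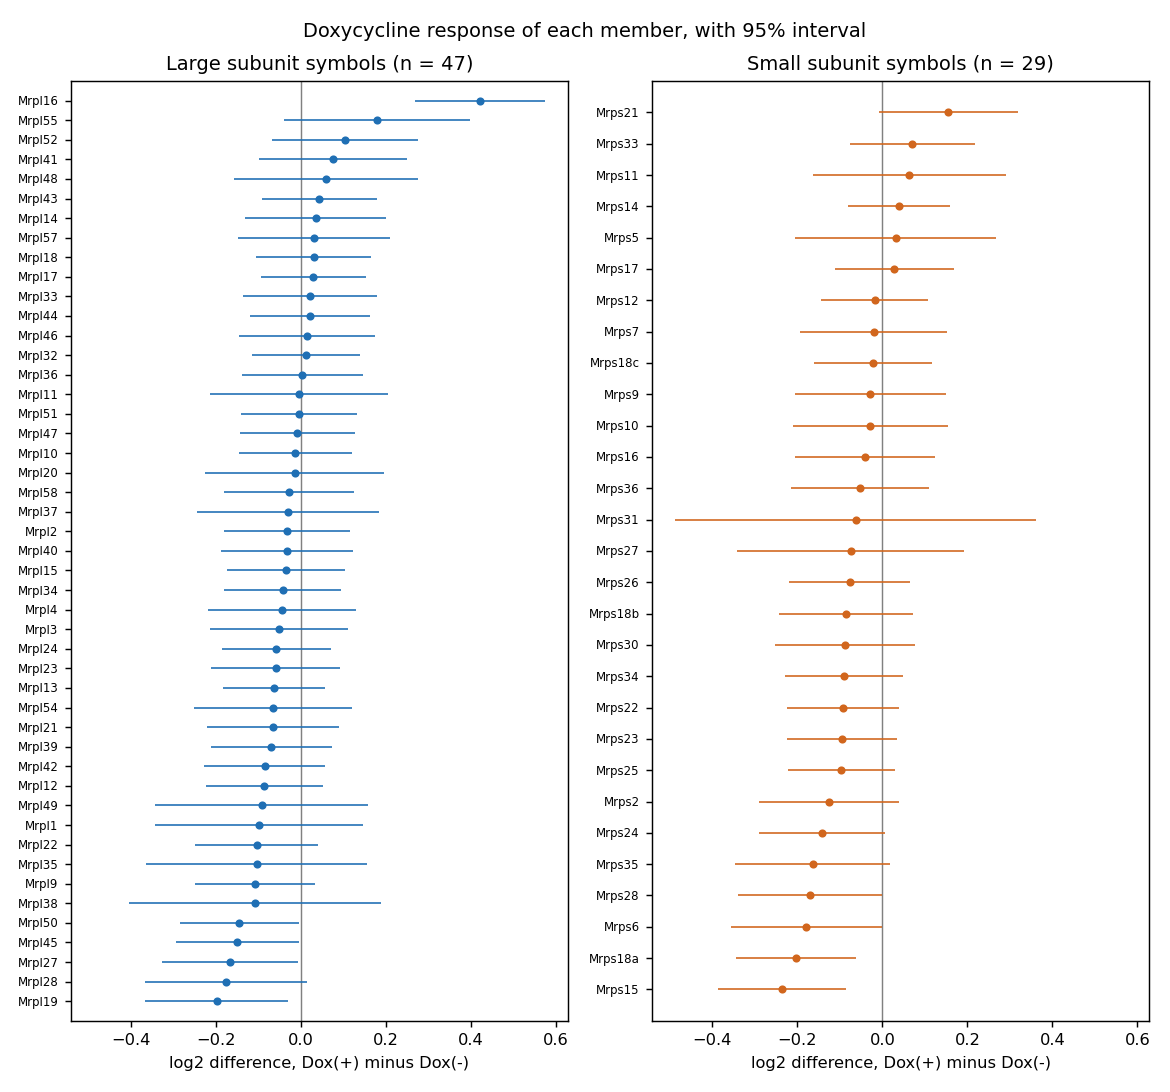
Log2 difference of each gene, Dox(+) minus Dox(-) with the array-set block, for the 47 large (left) and 29 small (right) subunit symbols, with 95% intervals as bars. Mrpl16 stands at 0.42, and all other genes lie between -0.24 and 0.18.

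Mrpl16 encodes the large subunit counterpart of the bacterial protein of the same number, which sits near the peptidyl transferase centre. Its signals were 8733, 7105 and 7522 on the Dox(+) arrays, against 5913, 5891 and 5571 on the Dox(-) arrays. The first value of each group is the EA15 array, and the same order is kept below. All 3 Dox(+) arrays were above all 3 Dox(-) arrays, the lone case of such separation among the 76. Over all genes 3.84% were so separated upwards and 3.06% downwards. The means were 7787 ± 846 for Dox(+) and 5792 ± 192 for Dox(-) (SD, n = 3 arrays each). The fold was 1.34 (95% interval 1.2 to 1.49), but the limma adjusted p was 0.065, so Mrpl16 did not pass. It ranked 45 of 18193 by p-value. The difference was 0.35 in the EA20 set (limma adjusted p 0.11) and 0.56 in the EA15 set, which has 1 array per group and no test. Across the other settings tried, the adjusted p ran between 0.021 and 1.0, as given in the closing section. Mrpl16 has a single probe set.

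The promoter windows of Mrpl16 and Mrps21 above 0 and Mrps15 and Mrps18a below 0, are printed because these 4 genes had the smallest p-values in each direction. Each is a RefSeq window of 300 bases in GRCm38.p6, taken from 250 bases before to 50 after the gene's start, 5′ to 3′ on the gene's strand. Mrpl16 lies at chr19:11770165-11770464 on the plus strand, Mrps21 at chr3:95871465-95871764 on the minus strand, Mrps15 at chr4:126046678-126046977 on the plus strand and Mrps18a at chr17:46110754-46111053 on the plus strand. Capitals mark matches to 4 motifs of factors known to act on promoters of mitochondrial protein genes or on growth genes.
Mrpl16: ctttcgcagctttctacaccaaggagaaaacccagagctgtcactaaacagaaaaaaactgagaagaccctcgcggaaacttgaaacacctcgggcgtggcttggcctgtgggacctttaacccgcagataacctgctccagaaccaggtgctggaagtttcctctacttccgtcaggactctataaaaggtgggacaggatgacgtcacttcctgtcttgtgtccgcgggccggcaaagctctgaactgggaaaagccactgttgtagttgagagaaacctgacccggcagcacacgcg
Mrps21: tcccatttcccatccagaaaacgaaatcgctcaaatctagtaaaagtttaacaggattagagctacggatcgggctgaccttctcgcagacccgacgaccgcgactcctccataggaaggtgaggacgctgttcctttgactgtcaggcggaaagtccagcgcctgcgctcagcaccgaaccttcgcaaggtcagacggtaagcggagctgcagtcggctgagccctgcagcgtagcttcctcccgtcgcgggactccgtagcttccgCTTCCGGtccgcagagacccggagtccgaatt
Mrps15: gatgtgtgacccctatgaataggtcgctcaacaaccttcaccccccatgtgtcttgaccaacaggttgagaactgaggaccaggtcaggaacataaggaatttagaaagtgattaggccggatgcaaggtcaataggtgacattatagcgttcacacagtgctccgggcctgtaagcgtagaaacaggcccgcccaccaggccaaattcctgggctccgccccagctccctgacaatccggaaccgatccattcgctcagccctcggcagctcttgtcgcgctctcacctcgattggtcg
Mrps18a: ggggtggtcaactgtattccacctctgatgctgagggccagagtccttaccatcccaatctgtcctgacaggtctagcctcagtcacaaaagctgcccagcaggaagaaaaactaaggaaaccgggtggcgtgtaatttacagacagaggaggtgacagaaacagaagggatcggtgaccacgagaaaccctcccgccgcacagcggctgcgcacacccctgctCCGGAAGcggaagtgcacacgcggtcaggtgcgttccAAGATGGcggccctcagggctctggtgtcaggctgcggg
The letters searched, on both strands, were GCATGCG (NRF1), CCGGAAG (ETS factors such as GABPA), AAGATGG (YY1) and CACGTG (the E-box bound by MYC and related factors). The ETS and YY1 letters share AAG and can overlap. The Mrps18a window holds the ETS letters 26 bases before the start and the YY1 letters at base 12 after it, and the Mrps21 window holds the ETS letters on the opposite strand at base 19. Those of Mrpl16 and Mrps15 hold none of the 4. Windows were found for 67 of the 76 genes. The ETS letters stood in 25 of the 67 (37.3%, against 9.93% of all 27025 genes with a window and 15% of those measured on the array), and the YY1 letters in 13 (19.4%, against 7.28% and 7.54%). NRF1 letters were found in 8 (11.9%, against 4.01% and 5.86%) and the E-box in 5 (7.46%, against 8.09% and 10.2%). By subunit, the ETS letters stood in 14 of 41 large and 11 of 26 small subunit windows, and the NRF1 letters in 7 and 1. A match describes the letters of the window and is not a binding site.

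Of the other large subunit genes above 0, Mrpl55 and Mrpl52, which encode proteins with no bacterial counterpart, were at 0.18 (SE 0.096) and 0.10 (SE 0.076). The other Mrpl52 probe sets gave 0.17, 0.14 and, in a dim one, 0.065. Mrpl41 and Mrpl43, also specific to mitochondria, were at 0.075 and 0.043. Mrps21, a small subunit gene with a bacterial counterpart, had signals of 2335, 1704 and 1881 with doxycycline, against 2073, 1729 and 1509 without. The groups overlapped, with a difference of 0.16 (SE 0.073, limma adjusted p 0.48). Mrps33 was at 0.070 and Mrps14 at 0.039. In the EA20 set both Dox(+) arrays of Mrps33 and of Mrps14 were above both Dox(-) arrays. This was so for 3 of the 76 genes (3.95%), against 21.6% of all genes. In the EA15 set Mrps33 was at -0.060 and Mrps14 at 0.030.

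Among genes with differences below 0 by the probe sets used, the smallest p belonged to Mrps15, a small subunit gene with a bacterial counterpart. Its signals were 3091, 1372 and 1446 with doxycycline, against 3753, 1737 and 1541 without. Within each set the Dox(+) arrays were below the Dox(-) arrays, although the ranges of the groups overlap across the sets. Such order within both sets was seen for 13 of the 76 genes (17.1%), against 11.2% of all genes. The genes named here were chosen by p from the blocked fit, so this order is no separate support. The Mrps15 difference was -0.24 (SE 0.066, limma adjusted p 0.23). A second Mrps15 probe set was at -0.087 and a dim one at 0.54, and the mean of all 3 gave 0.071 (limma adjusted p 0.92). Mrps18a had signals of 2243, 1179 and 1223 with doxycycline, against 2417, 1438 and 1427 without, again lower within each set, at -0.20 (SE 0.062, limma adjusted p 0.27). Its protein is placed in the large subunit by structures of the mammalian ribosome, despite its small subunit name.

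Mrpl19, whose protein has a bacterial counterpart at the interface of the subunits, had signals of 2460, 1546 and 1787 with doxycycline, against 2614, 2032 and 1943 without. It too was lower within each set, at -0.20 (SE 0.074, limma adjusted p 0.35), and its second probe set gave -0.18. Mrpl27, the counterpart of a bacterial protein close to the peptidyl transferase centre, was at -0.17. Its other, dimmer probe set was at 0.017, and the mean of its probe sets gave -0.075 (limma adjusted p 0.92). Mrpl45, which helps to hold the ribosome at the inner membrane, was at -0.15, and Mrpl50, specific to mitochondria, at -0.15. In the small subunit, Mrps6 was at -0.18 and Mrps28 at -0.17. None of these 5 passed (limma adjusted p between 0.42 and 0.44). Mrps6 and Mrps28 were at -0.28 and -0.26 in the EA20 set, and at 0.027 and 0.0051 in the EA15 set.

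**Figure D2:**
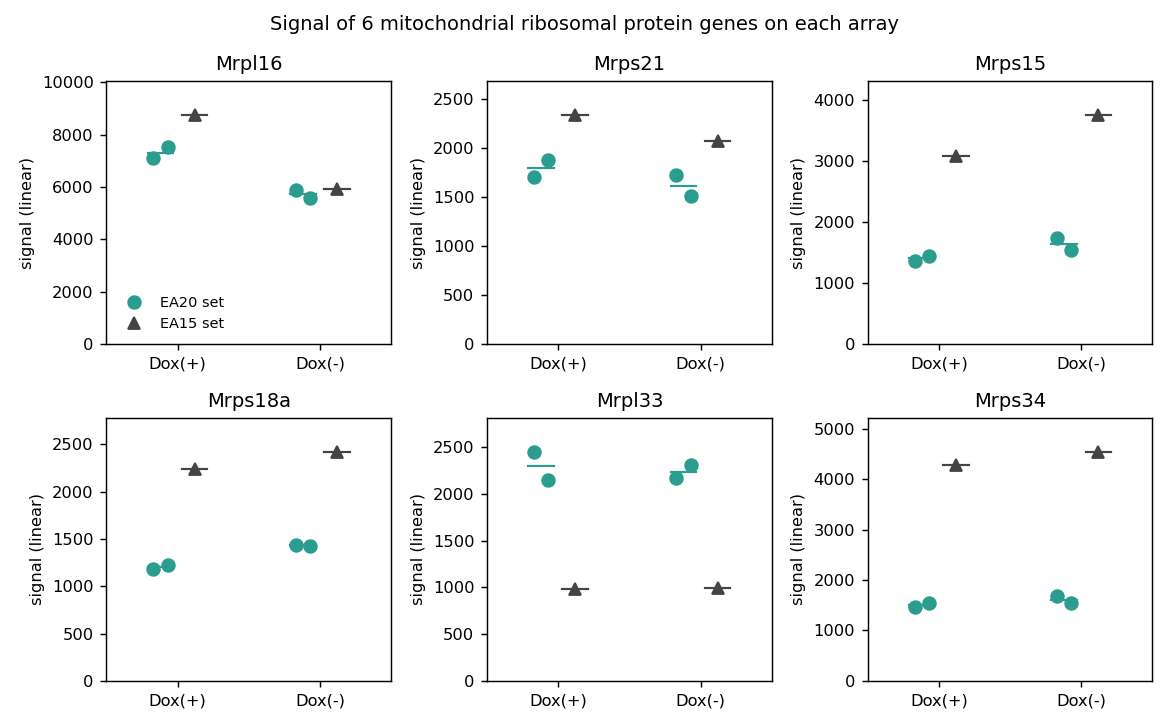
Signal (linear, in the deposited units) of 6 genes on each of the 6 arrays, Dox(+) left and Dox(-) right in each panel, with circles for the EA20 set, triangles for the EA15 set and short lines for the mean of a set. Mrpl16 is separated by treatment, whereas Mrps34 and Mrpl33 are separated by array set, in opposite directions.

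As a group, 55 of the 76 genes (72.4%) had differences below 0, against 49.3% of all genes, and the median was -0.044, against 0.0037 for all genes. On single arrays the median of the 76 genes, relative to each gene's mean, was 0.47, -0.25 and -0.27 for Dox(+), against 0.44, -0.14 and -0.23 for Dox(-). The Dox(+) array was thus the higher in the EA15 set, and both Dox(+) arrays were the lower in the EA20 set. The size of the difference depended on single arrays. Without Dox(-) replicate 2 the median was -0.0030 with 42 of 76 below 0, without Dox(+) replicate 2 it was -0.029 with 51, and without Dox(+) replicate 3 it was -0.032 with 48. Without Dox(-) replicate 3 it was -0.064 with 55 below 0, and without replicate 1 of either group it was -0.074 with 62. The dimmest of the 76 had a mean signal of 335. Among the 7568 genes at least as bright, a background chosen after the data were seen, 50.7% had differences below 0 and the median was -0.0029. At an unadjusted limma p under 0.05, 9.71% of those bright genes were higher and 9.62% lower.

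The large subunit had a median of -0.034 with 32 of 47 genes below 0, and the small subunit -0.075 with 23 of 29 below 0. The difference of these medians was 0.041, but 0.0090 without Dox(+) replicate 2 and 0.077 without Dox(+) replicate 3. By unadjusted p under 0.05, 4 large (8.51%) and 4 small subunit genes (13.8%) were lower. The share was 5.26% over all genes and 9.62% over the 7568 bright genes. In the other direction 1 large subunit gene, Mrpl16, was higher (2.13%), against 5.82% of all genes and 9.71% of the bright genes. On single arrays, the large subunit median minus that of the small subunit was -0.046, 0.092 and 0.044 for Dox(+), against -0.040, 0.0015 and -0.026 for Dox(-). In the EA20 set both Dox(+) arrays were thus above both Dox(-) arrays, and in the EA15 set the arrays differed little. Some names do not match the place of the protein: Mrps30 and Mrps18a encode large subunit proteins, and the Mrps36 product is known as a component of the 2-oxoglutarate dehydrogenase complex. Counted by structure, the medians were -0.036 for 49 large and -0.069 for 26 small subunit genes. Mrps30 was at -0.088 and Mrps36 at -0.053, and neither passed.

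The array sets gave different pictures of the group. In the EA20 set 62 of 76 genes (81.6%) were below 0, against 50.3% of all genes, with a median of -0.074. In the EA15 set 32 of 76 (42.1%) were below 0, against 47.5% of all genes, with a median of 0.018. For 34 of the 76 genes (44.7%) both EA20 Dox(+) arrays were below both EA20 Dox(-) arrays, against 20.9% of all genes, and for 3 (3.95%) both were above, against 21.6%. Below 0 in both sets were 26 genes (34.2%, against 25.8% of all genes), and above 0 in both sets 8 (10.5%, against 28%). The large and small subunit medians were -0.072 and -0.11 in the EA20 set and 0.030 and 0.0089 in the EA15 set. Within the EA20 set limma called 0 of the 76 higher and 0 lower, against 0.302% and 0.11% of all genes. At an unadjusted p under 0.05 it held 1 higher (1.32%, against 6.67% of all genes) and 9 lower (11.8%, against 6.34%).

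**Figure D3:**
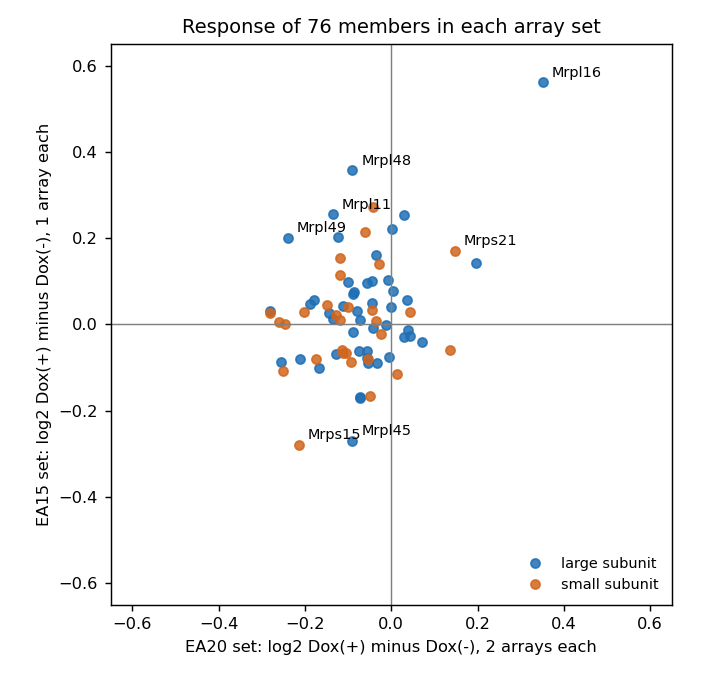
Log2 difference of each of the 76 genes, Dox(+) minus Dox(-), in the EA20 set (horizontal, 2 arrays per group) and in the EA15 set (vertical, 1 array per group), with large subunit symbols in blue and small in orange. Most genes lie left of 0 on the horizontal axis and on either side of 0 on the vertical one, and Mrpl16 is far above 0 on both.

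A test of the difference between the sets' responses, the doxycycline by set interaction, passed for 0 of the 76 genes and for 0 of all 18193 (limma, percent called 0). It assumes that the lone EA15 arrays vary like the EA20 arrays. At an unadjusted p under 0.05 the response was lower in the EA20 set for 4 of the 76 (5.26%, against 3.2% of all genes) and higher for 0 (against 3.52%). The 4 were Mrpl48, Mrpl11, Mrps6 and Mrpl49. Mrpl48, a mitochondria-specific large subunit gene, had signals of 1886, 1391 and 1404 with doxycycline, against 1469, 1567 and 1415 without. Its difference was -0.090 in the EA20 set and 0.36 in the EA15 set (interaction limma adjusted p 0.71), but a second Mrpl48 probe set read 1078 with and 1119 without doxycycline in the EA15 set, on the other side. Mrpl11, whose protein forms the base of the ribosomal stalk, was at -0.14 in the EA20 set and 0.26 in the EA15 set. In the EA15 set a nearly as bright Mrpl11 probe set read 2436 with and 2529 without doxycycline. A dimmer probe set read 579 with and 612 without. Both were thus below 0 there, as in the EA20 set (-0.24 and -0.29). Only the dimmest Mrpl11 probe set had the signs of the probe set used. It read 101 with and 79.7 without in the EA15 set, and was at -0.27 in the EA20 set. Mrpl49 was at -0.24 in the EA20 set and 0.20 in the EA15 set, and its second probe set was at 0.048 in the EA20 set. Of the 42 genes with several probe sets, 24 had probe sets with differences of both signs. Of all 156 probe sets, 0 passed when every probe set was tested by itself, the lowest limma adjusted p being 0.099 (Mrpl16). A dimmer, unused probe set of Mrpl9 was at -0.30 (limma adjusted p 0.29), against -0.11 for the one used.

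More of these genes passed between the array sets than with doxycycline. In the EA20 set 61 of the 76 genes (80.3%) were lower than in the EA15 set and 2 were higher (limma with doxycycline in the model, Benjamini-Hochberg adjusted p under 0.05), against 16.3% and 17.3% of all genes. Among the 7568 bright genes 34.2% were lower and 33.9% higher. The median difference, EA20 minus EA15, was -0.71, with -0.65 for the large and -0.72 for the small subunit, against 0.038 for all genes. Lower were 37 of 47 large and 24 of 29 small subunit genes. Leaving out each array in turn, chosen after the data were seen, gave 56 to 62 lower and 2 higher. With median centring of the arrays the median of all genes moved to -0.14, and 70 of the 76 genes were lower and 1 higher. As the EA15 set holds 1 array of each treatment, what separates the sets was not tested.

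Mrps34, a mitochondria-specific small subunit gene, differed most. Its signals in the EA20 set were 1473 and 1549 with and 1689 and 1539 without doxycycline, against 4272 with and 4538 without in the EA15 set. The EA20 level was 0.357 of the EA15 level (limma adjusted p 5.2e-07). Mrpl12, which encodes the stalk protein that recruits translation factors, was at 0.384, with 2882 and 2782 with and 3183 and 3075 without doxycycline in the EA20 set, against 7858 with and 7714 without in the EA15 set. Mrpl22, whose protein lines the exit tunnel, was at 0.459 (limma adjusted p 2.8e-06), and Mrps15 at 0.448 (limma adjusted p 2.9e-06). In all 4 genes every EA20 array was below both EA15 arrays. These genes were chosen by p between the sets, so this order is no separate support. Its share over all genes was not counted.

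Mrpl33 and Mrpl24 went the other way. Mrpl33, the counterpart of a small bacterial large subunit protein, had 2448 and 2152 with and 2167 and 2306 without doxycycline in the EA20 set, against 980 with and 990 without in the EA15 set. That is 2.28-fold higher in the EA20 set (limma adjusted p 3.2e-06). Its other, dim probe set read 52.0 to 108 in the EA20 set, against 42.5 and 89.6 in the EA15 set, so there the sets overlapped. Mrpl24, an early-assembling large subunit protein in bacteria, was 1.28-fold higher (limma adjusted p 0.0012) but did not pass with median centring (0.18, limma adjusted p 0.11). Mrpl52 was at 0.23 (limma adjusted p 0.060) and Mrps18c, from one of the 3 mammalian genes of its family, at 0.040 (0.72). Another bright Mrpl52 probe set read 3452 to 3938 in the EA20 set, against 2956 and 2519 in the EA15 set. A further bright probe set read 3272 to 3589, against 2717 and 2312. In the dim Mrpl52 probe set the sets overlapped. Without probe sets that may cross-hybridise, Mrpl52 was at 0.46 and passed (limma adjusted p 0.00034). Besides Mrpl52 and Mrps18c, 11 genes did not pass, among them Mrpl16, Mrps14 and Mrps33.

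**Figure D4:**
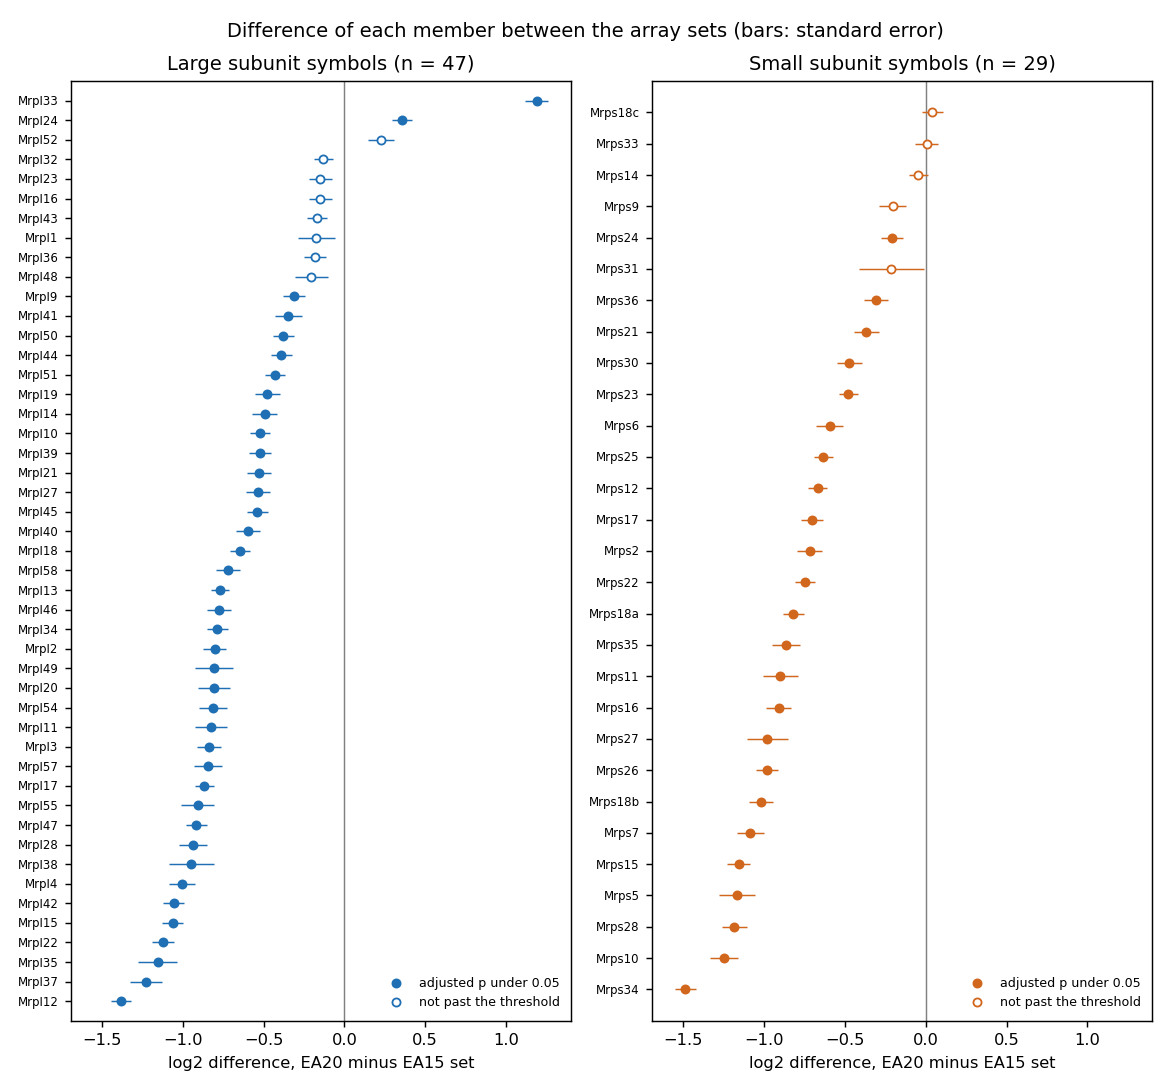
Log2 difference between the array sets, EA20 minus EA15, for each large (left) and small (right) subunit symbol, with bars for the standard error and filled points for a limma adjusted p under 0.05. Of the 76 genes, 61 lie to the left of 0 and pass, and Mrpl33 and Mrpl24 lie to the right and pass.

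Other groups of the same machinery were read in the same fit, and none of their genes passed in either direction with doxycycline. The share below 0 over all genes was 49.3%. The 4 measured ribosomal proteins whose symbols lack the Mrp prefix had a median of -0.15 and all 4 were below 0. Ptcd3, which binds the small subunit, was at -0.18 (SE 0.067), Gadd45gip1, of the large subunit, at -0.18 (SE 0.070) and Chchd1 at -0.13 (SE 0.053). All 4 were called lower in the EA20 than in the EA15 set, as were 16.3% of all genes. Of 27 genes for ribosome assembly and rRNA modification, 20 were below 0 (median -0.091). Examples were the RNA helicase gene Dhx30 at -0.19, Mpv17l2 at 0.20 and Mterf3, of ribosome biogenesis, at -0.13 (limma adjusted p 0.40, 0.46 and 0.49). Of 13 translation factor genes, 11 were below 0 (median -0.085), with the recycling factor gene Mrrf at -0.17, the elongation factor Tu gene Tufm at -0.17 and the elongation factor G gene Gfm1 at -0.13.

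The 20 genes for charging mitochondrial tRNAs had a median of -0.058 with 13 below 0, and of them Nars2 was at 0.18, Pars2 at -0.19 and Lars2 at -0.13. In the list of mitochondrial transcription and its regulators, 11 of 14 were below 0 (median -0.12). Myc had the smallest p, at -0.36 (SE 0.073, limma adjusted p 0.11), with 4173 ± 285 for Dox(+) against 5379 ± 381 for Dox(-) (SD, n = 3 arrays each). Tfam, which packages mitochondrial DNA, was at -0.12, and Pprc1, a coactivator of the same pathway, at -0.21. Chaperones and proteases of mitochondria were below 0 in 12 of 15 (median -0.10), with Trap1 at -0.17 and the chaperonin genes Hspe1 and Hspd1 at -0.18 and -0.19. Of 17 genes of the mitochondrial stress response 12 were below 0 (median -0.089). There Shmt2, of mitochondrial folate metabolism, was at -0.32 (SE 0.065), Phgdh, of serine synthesis, at -0.37 (SE 0.095) and Cth, of cysteine synthesis, at -0.29 (SE 0.082), with limma adjusted p of 0.11, 0.20 and 0.24. Taken by set, 20 of 27 assembly, 11 of 13 translation factor and 12 of 20 tRNA charging genes were below 0 in the EA20 set. In the EA15 set these counts were 15, 7 and 7. For the transcription, chaperone and stress response lists they were 11 each in the EA20 set, and 9, 6 and 11 in the EA15 set. Over all genes 50.3% were below 0 in the EA20 set and 47.5% in the EA15 set. No mRNA encoded by mitochondrial DNA was named by the annotation used here.

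Cytosolic ribosomal proteins and the nuclear oxidative phosphorylation subunits, whose complexes take up the products of mitochondrial translation, were set beside the 76 genes. With doxycycline, 39 of 48 cytosolic ribosomal protein genes (81.3%) were below 0, with a median of -0.026, and 45 of 80 oxidative phosphorylation genes (56.3%), with a median of -0.0062. Over all genes 49.3% were below 0, and none of either group passed. The counts below 0 were 41 and 45 in the EA20 set, and 29 and 35 in the EA15 set. Between the array sets the groups parted: the median, EA20 minus EA15, was -0.71 for the mitochondrial ribosome, 0.15 for the cytosolic ribosome and -0.27 for oxidative phosphorylation. The shares called lower in the EA20 set were 80.3%, 8.33% and 53.8%, and those called higher 2.63%, 22.9% and 5.00%. Over all genes 16.3% were called lower and 17.3% higher. The groups also differed in brightness, with median signals of 1905, 30917 and 6478 in the same order. Whether brightness bears on the set differences was not tested. No test was made between these groups.

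**Figure D5:**
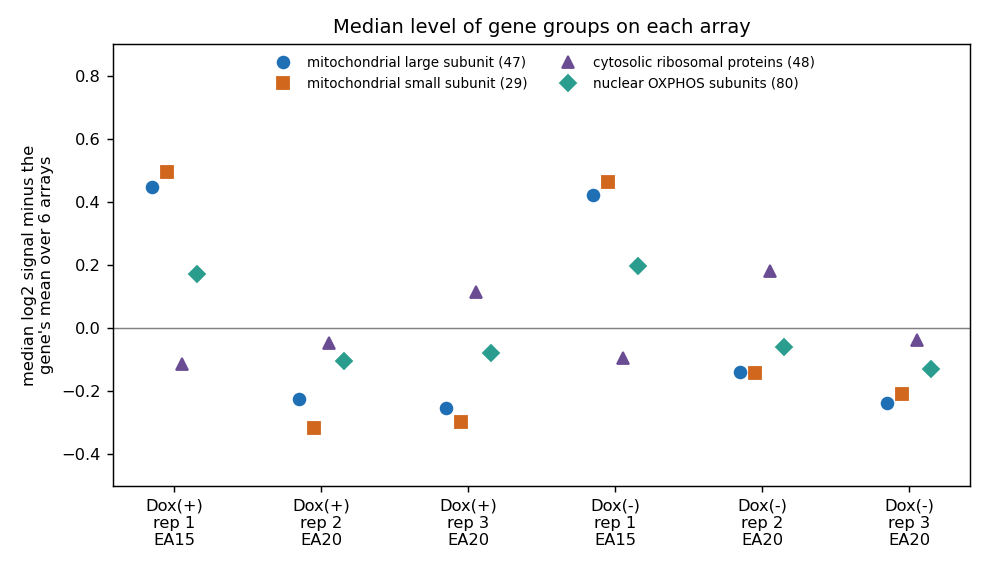
Median, over the genes of a group, of log2(signal + 16) minus each gene's mean over the 6 arrays, for 47 large and 29 small subunit genes of the mitochondrial ribosome, 48 cytosolic ribosomal protein genes and 80 nuclear oxidative phosphorylation genes, with Dox(+) arrays left and Dox(-) arrays right. Both subunits of the mitochondrial ribosome are low on the 4 EA20 arrays (-0.32 to -0.14) and high on the 2 EA15 arrays (0.42 to 0.49).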

How the data were processed

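RNA of 6 samples was measured on Affymetrix mouse arrays. The authors deposited 1 signal intensity, on a linear scale, for each probe set. The submitters' processing notes name Affymetrix Expression Console, without its version. By the values themselves, each array was scaled to a mean of 500 after trimming 2% at each end. Having 6 arrays limits the precision, and detection calls played no part.

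Groups came from source names. Replicate numbers follow accession order and were not used as pairs. The EA15 arrays share a code apart from its suffix, whereas each EA20 array has its own code. Of 45101 probe sets 64 are controls. Genes were named from the platform annotation, and Entrez identifiers changed 0 symbols. Probe sets of several genes were not used. Each gene took its brightest probe set, as log2(signal + 16). Differences were fitted with limma 3.58.1 in R 4.3.3 (lmFit, then eBayes with trend), with array set as a fixed block. Tests were two-sided, over all 18193 genes. The code was tried on data simulated from the same model, with effects larger than any member's. Such data do not test whether the model suits these arrays. Members, lists, block and tests were chosen with earlier results of these data known. Named genes were 8 per direction by lowest p, 4 for the interaction, 4 per direction between sets, 3 per list, Mrps30, Mrps18a and Mrps36; promoters were those of the first 2 per direction. Alternatives were no block, the EA20 set alone, normalization, prior, filter, probe set choice, array weights, pseudocount, threshold and leaving out each array.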

Additional observations from a re-analysis of the deposited data

How the results depend on the processing

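The count of 0 genes lower with doxycycline held in every setting tried, for both subunits. The count higher was 1 (Mrpl16, of the large subunit) in place of 0 with a robust prior (limma adjusted p 0.039), when the dimmest 40% of genes were left out (0.021), with a pseudocount of 1 (0.046) and at an adjusted p under 0.10 (0.065). In the last of these only the cut-off changed. Why the adjusted p moved in the other settings was not tested. Mrpl16 stayed above 0 in every setting (0.35 to 0.46), with a limma adjusted p of 1.0 without the block and 0.55 without the trend. Leaving out each array in turn gave 0 to 0 calls among the 76 genes, but limma then called only 0 to 60 of all genes. A count of 0 among 76 is thus near the background in those fits. The median was -0.074 to -0.0030 for all 76 genes, -0.072 to 0.00014 for the large and -0.11 to -0.038 for the small subunit. The large minus the small subunit median was 0.0090 to 0.077. Between array sets, 1 gene in place of 2 was higher with median centring, and 3 with quantile normalization, without dim genes, at an adjusted p under 0.10 and with probe sets averaged. The 61 lower were 70 with median centring, 50 with probe sets averaged and 43 of 62 without probe sets that may cross-hybridise. Of 517 comparisons of single named genes across settings, 507 stayed on their side of the threshold, 9 passed the threshold anew (4 for Mrpl16, 5 for Mrpl52 between sets) and 1 no longer passed (Mrpl24 between sets). Among the 507, 4 uncalled values changed sign: Mrps15 was at 0.071 and the Mrpl48 interaction at 0.032 with the mean of all probe sets, Mrps36 at 0.012 without Dox(+) replicate 2 and Mrps18c between sets at -0.13 with median centring. Over all genes, the 36 calls with the block were 0 without it or without the trend and 130 without dim genes, where the interaction had 30 in place of 0, none of them among the 76. No paired analysis over all arrays was possible. The replicate numbers are in accession order, and the labels give no pairs within the EA20 set. The array set stood as the block. With 6 arrays, the lowest SE among the 76 differences was 0.053.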

Other observations

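The mitochondrial stress response list had a median difference between the array sets of -1.41, EA20 minus EA15, with 13 of 17 genes called lower and 0 higher (limma, adjusted p under 0.05), against 16.3% and 17.3% of all genes, and 34.2% and 33.9% of the 7568 bright genes. Cth was at -2.06, Phgdh at -1.65 and Shmt2 at -1.36. The mitochondrial chaperone and protease list had a median of -0.79 with 12 of 15 called lower (against the same 16.3% and 34.2%), among them Hspd1 at -1.21. Translation factors had a median of -0.46, tRNA charging genes -0.37 and assembly genes -0.36. Myc was at 0.069 between the sets (limma adjusted p 0.59). What these lists share with the mitochondrial ribosome in the sets was not tested.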
